A study of Caenorhabditis elegans with 2 samples.

Results

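The genes described here are cytosolic ribosomal protein genes of Caenorhabditis elegans, followed through the peaks of a ChIP-seq experiment on the transcription factor UNC-62. They were chosen by name alone, as protein-coding genes of the WBcel235 annotation called rpl or rps with a number and no letter after it. The rule took 76 of 19973 nuclear protein-coding genes, 45 of the large subunit (rpl) and 31 of the small subunit (rps). ChIP-seq recovers and sequences the DNA bound by a protein, and a peak is a stretch where the recovered fragments pile up, with its highest point called the summit. All animals came from strain OP602 at the L4 larval stage, of mixed sex, and made up 1 group with 2 biological replicates and no other condition. In this stable transgenic line a GFP-FLAG tag is fused to the C-terminus of UNC-62, described as an insertion targeting unc-62, and the antibody's target is given as unc-62. Whole animals were used, so binding in a few cells, weak binding in many, and the tissue concerned cannot be told apart.

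Ribosomal proteins assemble with ribosomal RNA into the large subunit, which joins amino acids, and the small subunit, which reads the messenger RNA. Their genes are among the most actively transcribed in growing animals and are usually expressed in step with each other. UNC-62 is a TALE homeodomain protein of the Meis/Homothorax family, known for work with PBC and Hox partners in patterning, cell migration and the adult intestine. Many worm transcripts are trans-spliced, so an annotated start may lie downstream of the point where transcription begins.

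A gene was counted when its window, which reached 2000 bp upstream and 500 bp downstream from each annotated protein-coding transcript start, contained a summit. This window was applied to each of 4 deposited lists in the ce11 build. There were 15466 peaks for replicate 1, 24524 for replicate 2 and 30000 for the pooled replicates. The remaining list kept 114 peaks after a threshold on the irreproducible discovery rate (IDR), a measure of agreement between replicates. Peaks were ranked within each list by the authors' signal value, rank 1 being the highest, and signal values and ranks describe peaks within their own list only. The pooled list runs down to weak regions, so a summit in it does not by itself show binding. Read depth is unknown, and the number of genes sets the precision of each share.

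The 4 ribosomal protein genes with an IDR summit were rpl-3, rpl-15, rpl-22 and rpl-35, all of the large subunit. The sequences shown here are the 201 bases centred on the pooled summits of rpl-15 and rpl-35, as examples of the promoter stretches under these peaks. They lie at chrIV:654787-654987 (minus strand) for rpl-15 and chrIII:7854587-7854787 (plus strand) for rpl-35. Both are given on the strand of the gene, 5′ to 3′, from the RefSeq WBcel235 genome, whose coordinates are those of ce11, and neither holds an annotated exon. Capitals mark the run GGCCTAAA, in rpl-15, and the run TTTTAGTGAAGT, in both. These runs were picked out after the windows had been seen.
rpl-15: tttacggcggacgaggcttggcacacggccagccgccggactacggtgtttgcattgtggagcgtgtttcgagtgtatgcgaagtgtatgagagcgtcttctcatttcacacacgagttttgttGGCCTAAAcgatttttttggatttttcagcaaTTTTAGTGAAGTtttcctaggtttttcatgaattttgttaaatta
rpl-35: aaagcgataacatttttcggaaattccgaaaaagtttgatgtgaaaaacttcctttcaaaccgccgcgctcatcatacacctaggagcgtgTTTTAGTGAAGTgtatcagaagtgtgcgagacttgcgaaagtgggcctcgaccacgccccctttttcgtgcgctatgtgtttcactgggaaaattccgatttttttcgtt

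The strongest ribosomal protein gene peak lay upstream of rpl-3, whose product sits next to the peptidyl transferase centre of the large subunit. Its pooled peak ranked 3 of 30000, its signal value was 89.3, and its summit stood 274 bp before the start. In replicate 1 the site ranked 11 with a signal value of 27.9, and in replicate 2 it ranked 1 with 58.5. The summits of both replicates fell within 10 bp of the pooled one, at 276 and 284 bp upstream. A second, weak pooled peak lay 1645 bp upstream, in a coding exon of acs-19, at rank 26588.

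The other 3 IDR peaks had closely similar pooled signal values and differed in their replicates. At rpl-15, a structural protein of the large subunit, the pooled peak chrIV:654699-655074 ranked 72 with a signal value of 37.3. Its summit lay 311 bp upstream, and the site ranked 563 in replicate 1 (signal value 13.5) and 72 in replicate 2 (22.5). At rpl-22, an RNA-binding protein of the large subunit, the pooled peak, on chromosome II, ranked 76 with a signal value of 36.7 and a summit 242 bp upstream. Here the site stood nearer the top of the list in replicate 1, at rank 28 (signal value 23.5), and at rank 435 (14.6) in replicate 2. The start nearest to this summit was not that of rpl-22 but that of ify-1, the securin gene, which is read from the opposite strand and starts 195 bp from the summit. At rpl-35, whose product lines the exit of the peptide tunnel, the pooled peak chrIII:7854499-7854874 ranked 79 with a signal value of 36.4 and a summit 447 bp upstream. Replicate 1 ranked it 887 (12.6) and replicate 2 ranked it 66 (23.1). All 4 IDR summits were intergenic. Replicate 2 placed 3 of these sites among its first 100 peaks, and replicate 1 placed rpl-3 and rpl-22 there.

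**Figure D1:**
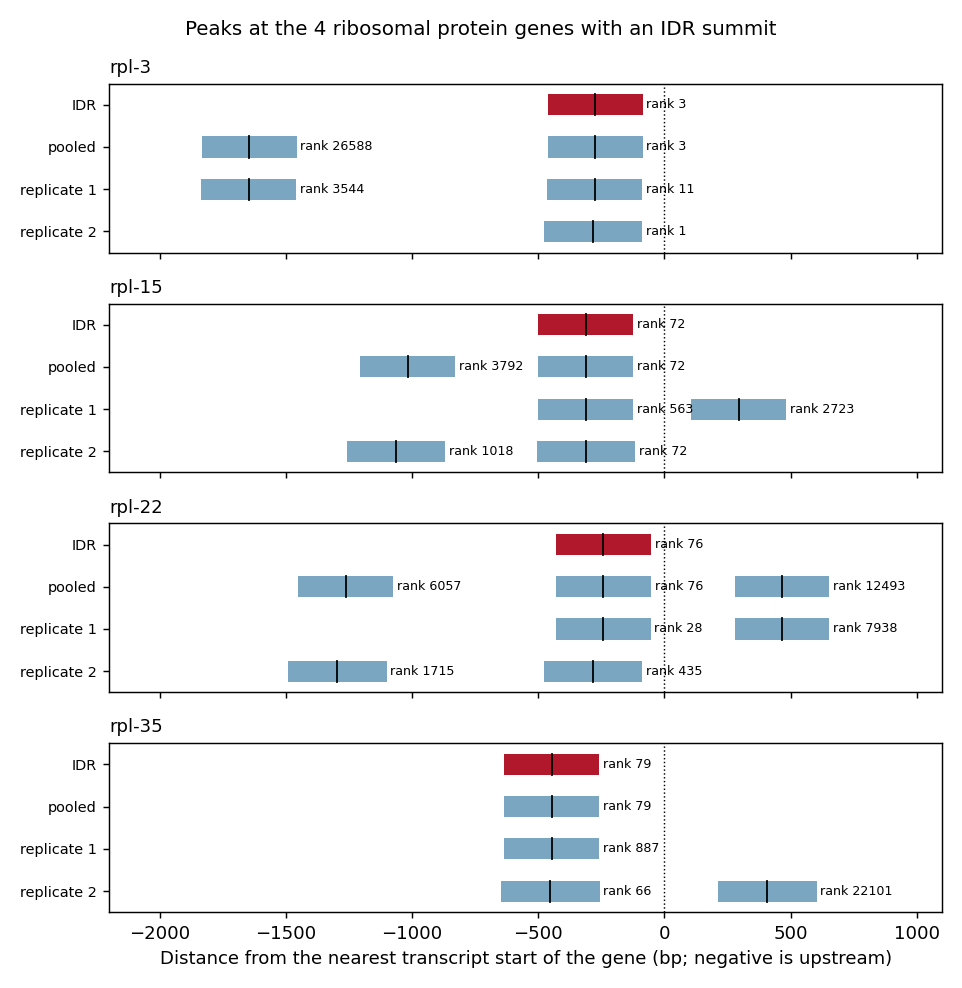
Peaks of the 4 lists at rpl-3, rpl-15, rpl-22 and rpl-35, drawn as bars against the distance in bp from the nearest transcript start of the gene (negative is upstream), with the summit as a black line and the rank within the list beside each bar. The IDR peak (red) of each gene lies upstream of the start, with summits from 242 to 447 bp, and every list has a peak there.

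Large subunit genes outnumbered small subunit genes near the top of the IDR and pooled lists, by a margin that differed between the replicates. An IDR summit lay in the window of 4 of 76 ribosomal protein genes, or 5.26% (95% exact interval 1.45 to 12.9%), against a background of 0.446% of all protein-coding genes. These were 4 of 45 large subunit genes, or 8.89% (2.48 to 21.2%), and 0 of 31 small subunit genes. That 0 allows a share of up to 9.68% by a limit of 3 counts, or 11.2% by the exact interval. The first 114 pooled peaks, as many as the IDR list holds, gave the same 4 large and 0 small subunit genes. The IDR and pooled counts are therefore nested and are not separate results. Among the first 1000 pooled peaks, 17 ribosomal protein genes had a summit, or 22.4% (13.6 to 33.4%), against 3.75% of all genes. Of the large subunit 14 genes were in this group, or 31.1% (18.2 to 46.6%), and of the small subunit 3, or 9.68% (2.04 to 25.8%). Among the first 1000 peaks of replicate 2 these were 11 large subunit genes (24.4%) and 2 small (6.45%), but in replicate 1, 6 (13.3%) and 3 (9.68%). The intervals of the subunits overlapped at both pooled depths, and no test was made between them, since genes are not replicates of a condition.

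Beyond the first 5000 pooled peaks the subunits drew closer. Among the first 5000 peaks, 48.9% of large subunit, 19.4% of small subunit and 15.2% of other genes had a summit. Among the first 10000 these shares were 64.4%, 51.6% and 26.9%. Over the whole list, 60 ribosomal protein genes had a summit, or 78.9% (68.1 to 87.5%), against 60.4% of all genes, with 38 of the large subunit (84.4%) and 22 of the small (71%). Between the first 5000 and the first 10000 peaks lay the widest step in the small subunit share, from 19.4% to 51.6%.

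**Figure D2:**
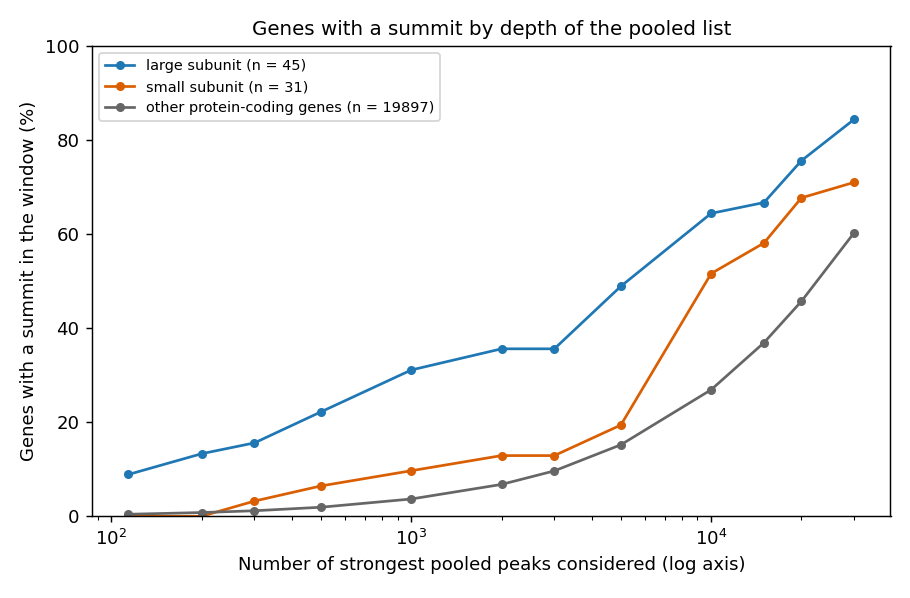
Share of genes (%) with a summit in the window as more of the pooled list is considered, from the 114 strongest peaks to all 30000 (log axis), for 45 large subunit, 31 small subunit and 19897 other protein-coding genes. Large subunit genes lie above the rest at every depth, at 31.1% against 9.68% and 3.67% for the first 1000 peaks.

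After the 4 IDR genes the large subunit was led by rpl-7 and rpl-20. At rpl-7 the pooled peak ranked 193 with a signal value of 28.7, 229 bp upstream of the start. The same site ranked 131 in replicate 2 (signal value 19.5, 230 bp upstream), while replicate 1 had it at rank 11460 (7.23), below another summit 960 bp upstream at rank 9302. At rpl-20 the pooled peak ranked 196 (signal value 28.7) at 289 bp upstream. Replicate 2 had this peak at rank 43 (26.4), and replicate 1 had none there, its only summit lying in a coding exon of rpl-20 at rank 4673. Both sites were strong in replicate 2 only. The remaining 8 large subunit genes with a summit among the first 1000 pooled peaks were rpl-6, rpl-25.2, rpl-17, rpl-11.2, rpl-41.2, rpl-43, rpl-16 and rpl-32, with ranks from 248 to 958.

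Of the small subunit, rps-12 and rps-21 came first, and both stood nearer the top of the list in replicate 1. The rps-12 peak, on chromosome III, ranked 215 with a signal value of 27.9, 160 bp upstream. It ranked 304 in replicate 1 (14.8) and 3746 in replicate 2 (9.37), and the nearest start was that of ska-3. The rps-21 peak ranked 390 (signal value 24.5) at 323 bp upstream. In replicate 1 the strongest summit lay 211 bp upstream at rank 197 (15.9), and in replicate 2 it lay 323 bp upstream at rank 16610 (6.00).

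The next 4 small subunit genes by pooled signal had summits farther from their starts. The strongest peak in the rps-29 window ranked 849 (signal value 21.3) and lay 833 bp upstream, in a coding exon of the synaptotagmin gene snt-2. That of rps-1 ranked 1071 (20.6) and lay 1831 bp upstream, in a coding exon of ifet-1. A nearer site of rps-1, 268 bp upstream, was the strongest in replicate 2 at rank 316 (15.6). The rps-15 peak ranked 3337 (16.7), 1412 bp upstream in an intron of F36A2.9. The peak of rps-28 ranked 4420 (15.7), 520 bp upstream, and neither replicate alone had a summit in that window.

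**Figure D3:**
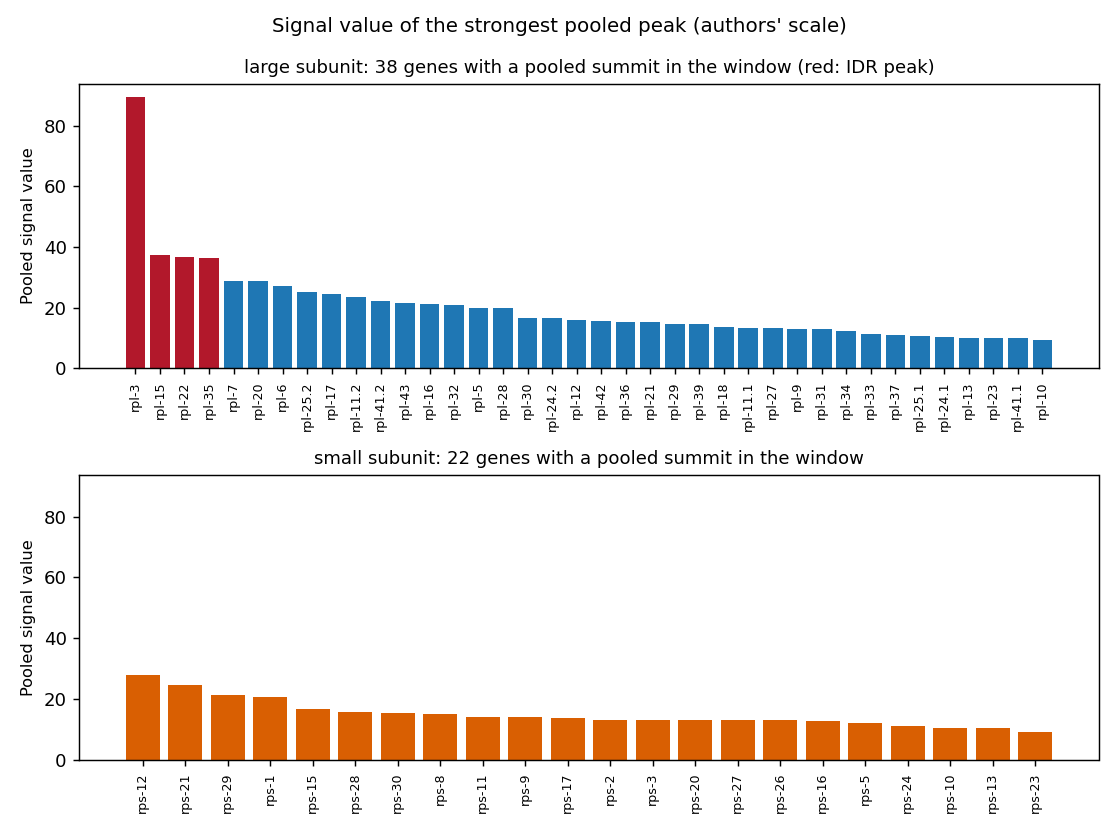
Signal value (authors' scale, from 0) of the strongest pooled peak in the window of each of the 38 large subunit and 22 small subunit genes that had one, 1 bar a gene, with IDR genes in red. The rpl-3 bar reaches 89.3, the other 3 IDR genes 36.4 to 37.3, and the highest small subunit bar, rps-12, 27.9.

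Most genes with a summit among the first 1000 peaks of 1 replicate lacked one in the other, at ribosomal protein genes and over all genes. A summit lay in the window of 44 ribosomal protein genes in replicate 1, or 57.9% against 37.5% of all genes, and of 55 in replicate 2, or 72.4% against 52.8%. Both replicates had one at 33 genes, or 43.4% (32.1 to 55.3%) against 24.6% of all genes, 21 of the large subunit and 12 of the small. Among each replicate's first 1000 peaks, 9 genes had a summit in replicate 1 (11.8% against 3.62%) and 13 in replicate 2 (17.1% against 3.43%). Both did so at 4 genes, or 5.26% (1.45 to 12.9%) against 0.831%, and these 4 were the genes with an IDR summit. Since IDR selects on both replicates, that coincidence is no separate check. Over all protein-coding genes, 724 had a summit among the first 1000 of replicate 1, 686 of replicate 2 and 166 of both. Sharing was thus incomplete over all genes too, at 166 of 724 and 166 of 686, beside 4 of 9 and 4 of 13 ribosomal protein genes. It was counted by gene window, so the summits of both replicates at a gene need not be the same site.

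Among the 17 genes with a summit in the first 1000 pooled peaks, rpl-17, rps-12 and rps-21 were in the first 1000 of replicate 1 and not of replicate 2. The reverse held for rpl-6, rpl-7, rpl-11.2, rpl-16, rpl-20 and rpl-25.2. In neither replicate's first 1000 were rpl-32, rpl-41.2, rpl-43 and rps-29. The strongest summits of both replicates lay within 100 bp of each other at 9 genes, or 11.8% against 5.93% of all genes, 8 of the large subunit and 1 of the small. Taken over genes with a summit in both replicates, this was 9 of 33, or 27.3%, close to the 24.1% found over all such genes.

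**Figure D4:**
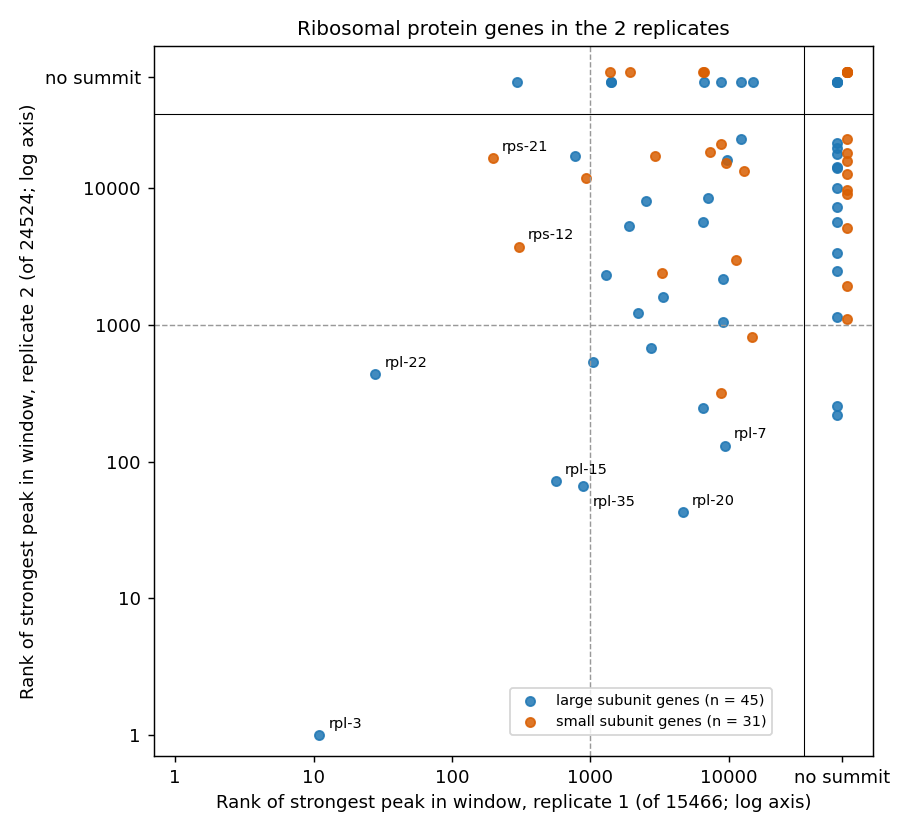
Rank of the strongest peak in the window in replicate 1 (of 15466) and replicate 2 (of 24524), on log axes, for 45 large and 31 small subunit genes, 1 point a gene, with genes lacking a summit set in the outer strips, where points overlap, and dashed lines at rank 1000. Only rpl-3, rpl-15, rpl-22 and rpl-35 lie within rank 1000 on both axes.

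At the other end, 16 ribosomal protein genes, or 21.1%, had no pooled summit in the window, against 39.6% of all protein-coding genes. Of these, rpl-2, rpl-14, rpl-19, rpl-26, rps-4, rps-6, rps-14, rps-18 and rps-22 had no summit in any list. A summit of replicate 2 alone lay at rpl-1, rpl-4, rps-0, rps-7 and rps-19, and one of replicate 1 alone at rpl-38 and rps-25. The 76 genes were spread over all chromosomes, with 23 on I, 18 on III, 16 on IV, 9 on II, 8 on V and 2 on X. Both X genes, like all 9 genes on II but 1, belong to the large subunit.

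Where a pooled summit was present, the strongest lay upstream of the start at most genes, and some lay inside a neighbouring gene. Of 60 such summits 35 were intergenic and 25 lay in a gene, which was the ribosomal protein gene itself in 5 cases. These places were not counted over all protein-coding genes, so whether they differ from the background is unknown. Over the 60 genes with a pooled summit, the strongest lay at a median of 413 bp upstream, against 570 bp over the 12059 genes with one. The median was 343.5 bp for the large and 544.5 bp for the small subunit. Replicate 2 had the subunits in the same order, at 284 and 848 bp upstream. Replicate 1 had them in the reverse order, at 459 and 310.5 bp. The difference from all genes depended on how summits were assigned. The median was 229 bp upstream against 245 bp for all genes when each summit counted only for the nearest start, and 302 against 311 bp when the window reached only 1000 bp upstream and 200 bp downstream. Between 100 and 500 bp upstream lay 25 of 60, or 41.7%, against 19.4% of all such genes. Upstream of the start lay 54, or 90%, against 77.6%. Both shares are given for the reported window only and rest on the same assignment of summits as the median of 413 bp. All 6 pooled summits downstream of a start were at large subunit genes (6 of 38, and 0 of 22 small). In replicate 1 the strongest summit lay downstream at 3 of 28 large and 2 of 16 small subunit genes. For replicate 2 these were 6 of 34 and 1 of 21. The median rank was 5692.5 for ribosomal protein genes, 4263.5 for the large and 8755.5 for the small subunit, against 11597 for all genes with a pooled summit. Median signal values were 14.8, 15.8 and 13.4, against 12.4.

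**Figure D5:**
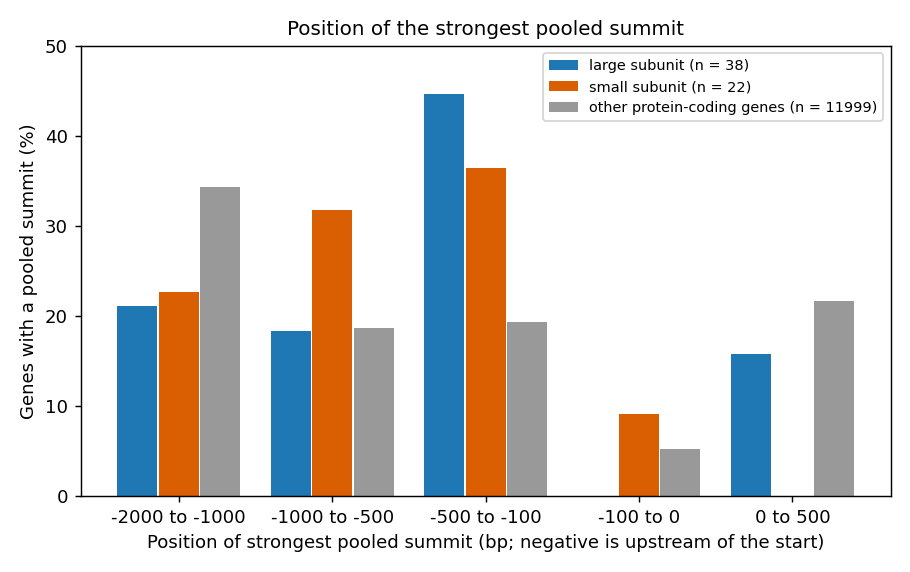
Position of the strongest pooled summit against the transcript start (bp, negative is upstream) as a share (%) of 38 large subunit, 22 small subunit and 11999 other protein-coding genes with a pooled summit. The band from 500 to 100 bp upstream holds 44.7%, 36.4% and 19.3% of them.

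Ribosomal protein genes stood in crowded stretches of the genome. Another protein-coding gene started within 2000 bp of 68 of the 76, or 89.5%, against 50.5% of all protein-coding genes, and the median distance to the nearest such start was 624.5 bp against 1978 bp. For 29 of the 60 genes with a pooled summit, or 48.3%, the start nearest to the strongest summit was their own, against 71.4% of all genes with one. When each summit counted only for the gene of the nearest start, 37 ribosomal protein genes kept a pooled summit, or 48.7% against 46.9% of all genes, and 13 a summit of both replicates, or 17.1% against 16.7%. These shares did not stand apart from the background. By the same rule 10 genes kept a summit among the first 1000 pooled peaks (13.2% against 2.61%) and 3 kept an IDR summit (3.95% against 0.3%), rpl-22 being the one lost.

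Some summits were shared outright. The divergent genes rpl-39 and rps-30 had 1 pooled peak between them, at rank 6252, 302 and 197 bp upstream of their starts. Likewise rpl-24.1 and rps-10 shared a pooled peak of rank 19388, 184 and 426 bp upstream. In all, the pooled summits in the windows belonged to 92 distinct peaks. Genes for small nucleolar RNAs, which guide modification of ribosomal RNA and often sit in ribosomal protein introns, overlapped the window of 13 genes, or 17.1% against 1.26% of all genes. A small nucleolar RNA gene lay within 500 bp of 5 of the 59 strongest pooled summits (8.47%) against 0.559% of the strongest summits of every protein-coding gene. A tRNA gene lay within 500 bp of 0 of the 59 (exact interval 0 to 6.06%) against 0.905%, so that 0 does not stand apart from the background. The part of these neighbours in the peak counts was not tested.

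In windows of 100 bp to either side of the summits, 8 sequences were searched on both strands. TGACAG, the core bound by Meis-family proteins, was in 2 of the 59 windows of strongest pooled peaks, or 3.39% (0.413 to 11.7%), those of rpl-30 and rpl-42, against 7.38% of 9832 windows over all protein-coding genes. Neither of the printed windows, rpl-15 and rpl-35, holds it. GAGAGA was in 7, or 11.9%, against 14.4%. Among the first 1000 pooled peaks it was in 2 of 17 ribosomal protein gene windows (11.8%, 1.46 to 36.4%) and in 30.2% of the other 983. AGAGAC, which can overlap GAGAGA by its first letters, was in 7 of 59 (11.9% against 9.61%), and in 1 of those 17, or 5.88%, against 21.8%. ACACAC was in 8 of 59 (13.6%, 6.04 to 25%, against 8.68%), and in 3 of the 17, or 17.6%, against 17.7%. The Hox-PBC sequence TGATNNAT was in 6 of 59 (10.2% against 16.5%), TGATAA in 10 (16.9% against 19.2%), CACGTG in 2 (3.39% against 3.68%) and TTTCAG in 20 (33.9% against 34.3%). Median GC content was 37.3% against 35.8%.

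The run GGCCTAAA lay 287 bp upstream of the rpl-15 start, in the same orientation as the gene and 24 bases to the start side of the summit. On either strand it was in 6 of the 59 windows of strongest pooled peaks (10.2%), all at large subunit genes, against 0.49% of all pooled windows. It was found by comparing 5 of these windows, and in the remaining 54 it occurred in 3, or 5.56%, those of rpl-11.2, rpl-25.2 and rpl-28. In the first 1000 pooled peaks it was in 5 of 17 ribosomal protein gene windows and in 2 of the other 983. Since the run was taken from these windows, its counts there are a description only.

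The same run was common in ribosomal protein promoters whether or not a strong peak lay there. It occurred within 500 bp upstream of the most upstream start at 21 of 76 genes, or 27.6%, 14 of the large and 7 of the small subunit, against 1.65% of all protein-coding genes. The 23 matches at ribosomal protein genes lay 67 to 371 bp upstream, at a median of 248 bp (quartiles 194 and 298.5 bp). The 347 matches at all protein-coding genes lay 5 to 496 bp upstream, at a median of 259 bp (153 and 382.5 bp). Since the search ended at 500 bp, it limited where either median could fall. Of the 21 genes with the run, 4 had an IDR summit, 7 a summit among the first 1000 pooled peaks (33.3%) and 16 a pooled summit (76.2%). Of the 55 without it, 0, 10 (18.2%) and 44 (80%) did. The run was taken from windows at pooled summits, which include those of IDR genes, so all of these contrasts are partly fixed by that choice. They are a description only, as is the count of 21, which includes rpl-15, whose window was among those compared. The genes rpl-2, rpl-26, rps-4 and rps-6 carried the run and had no summit in any list. Over the 308 other protein-coding genes with the run, 2.92% had a summit among the first 1000 pooled peaks, against 3.69% of those without it.

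TTTTAGTGAAGT, common to the rpl-15 and rpl-35 windows, occurred in 3 of the 30000 pooled windows. A shared run is a description of letters, and no factor is assigned to it.

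Other genes of the translation pathway gave mixed counts. Of 70 mitochondrial ribosomal protein genes, 0 had an IDR summit and 0 a summit among the first 1000 pooled peaks, which allows a share of up to 4.29% for each, although 51 (72.9%) had a pooled summit. Of 40 translation factor genes, 4 had a summit among the first 1000 pooled peaks (10%, 2.79 to 23.7%). An IDR summit lay at 2 (5%, 0.611 to 16.9%), close to the 5.26% of ribosomal protein genes. These 2 were iff-2, a homologue of the translation factor eIF5A, and eif-6, which keeps the large subunit from joining the small one. The iff-2 peak ranked 57 in the pooled list (signal value 39.7), 119 bp upstream, and ranked 80 in replicate 1 and 88 in replicate 2. The eif-6 summit ranked 41 (43.6) but lay 1974 bp upstream, nearest to the start of the tubulin gene tba-2, and replicate 1 had no summit in that window. None of 32 aminoacyl-tRNA synthetase genes had an IDR summit, which allows up to 9.38%, and 2 (6.25%, 0.766 to 20.8%) had one among the first 1000 pooled peaks. Outside translation, 4 of 20 vacuolar ATPase genes (20%, 5.73 to 43.7%) and 2 of 12 RNA polymerase II genes (16.7%, 2.09 to 48.4%) had a summit among the first 1000 pooled peaks. None had an IDR summit, which allows up to 15% and 25%. The first-1000 intervals of these sets, the translation factors and the synthetases all overlap that of the ribosomal protein genes (13.6 to 33.4%). A list of 5 cytosolic ribosomal proteins with other names (rla-0, rla-1, rla-2, ubl-1 and ubq-2), which the naming rule leaves out, had 3 pooled summits and 0 among the first 1000. With so few genes that 0 allows up to 60%. The rule also leaves out any rpl or rps name with a letter after the number, so these lists may not be the complete set.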

How the data were processed

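ChIP-seq peak lists from 1 group of 2 replicates were used, which the labels give as separate biological samples. Per the deposited readme texts, the authors called peaks for each replicate and for the pooled replicates against a control alignment, which was not analysed here, and thresholded them by IDR. Neither the software for alignment and peak calling nor the cutoff on IDR is named in the labels or readme texts used here. The signal value of each peak is the authors' own, as deposited, and was used to rank peaks within a list. The unit behind it is not stated, and read depth is unknown. Only the ce11 lists were used, since no ce10 annotation was at hand. Peaks were 376 bp wide, or 390 bp in replicate 2.

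Summits (1-based) were assigned to Ensembl release 115 protein-coding transcript starts of WBcel235, and a summit could count for several genes. Intervals are 95% exact Clopper-Pearson intervals over genes and cover counting error only. A count of 0 was given a limit of 3 counts of the total. That limit differs from the upper end of the exact interval, at 9.68% against 11.2% for 0 of 31 genes. With 1 group there was no comparison between conditions, and no p-value was computed. Named were the genes with an IDR summit, those in the first 1000 of both replicates, the 6 genes of highest pooled signal in each subunit, and those without a pooled summit. The genes and lists were chosen with earlier results of these data known. On simulated data, 200 of 200 summits planted in windows were recovered over 19973 genes. The sequences of some windows are not reported here. Alternatives covered the window, the starts, the nearest start, stricter lists, overlap rules and each replicate alone. Scripts ran under Python 3.11.15 with SciPy 1.17.1 for intervals, pandas 2.3.3, NumPy 2.4.6 and, for figures, matplotlib 3.10.9.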

Additional observations from a re-analysis of the deposited data

How the results depend on the processing

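The count among the first 1000 pooled peaks and the distance between replicate summits, with their alternatives, were chosen after seeing the data. A value alone in parentheses, or after "against" within them, is that of all protein-coding genes under the same setting. Assigning each summit to its nearest start lowered the counts to 37 genes with a pooled summit (48.7% against 46.9%), 13 in both replicates (17.1% against 16.7%) and 10 among the first 1000 pooled peaks (13.2% against 2.61%). The median rank was then 23.73% of the way down the pooled list (all genes 40.6%), against 18.98% as reported (38.66%), and the median position -229 bp (-245 bp). When the window was narrowed to 1000 bp upstream and 200 bp downstream, 18 genes, or 23.7%, had a summit in both replicates (11.6%), the median rank was 23.17% (42.07%) and the position -302 bp (-311 bp). With 5000 bp upstream these were 53 genes, or 69.7% (49.9%), 11.39% (29.86%) and -1249 bp (-1964 bp). A pooled peak with at least 50% of its length overlapped by each replicate was found at 21 genes, or 27.6% (12.9%). Replicate summits within 200 bp were found at 14, or 18.4% (8.68%). Summits among the first 500 of both replicates were found at 2 genes, or 2.63% (0.476%), and among the first 5000 at 12, or 15.8% (4.85%). The IDR peaks at or above their median signal included 1 gene, rpl-3, or 1.32% (0.205%). Without replicate 1, 4 genes had a summit among as many top peaks as the IDR list holds (5.26% against 0.411%), 55 had any summit and 13 one among the first 1000. Without replicate 2 these were 2 (2.63% against 0.396%), 44 and 9. The 4 genes without replicate 1 were rpl-3, rpl-15, rpl-20 and rpl-35, which are not the same 4 as the IDR genes. The 2 without replicate 2 were rpl-3 and rpl-22, so only rpl-3 was counted from each replicate alone. With either replicate left out, the median rank was 21.49 to 25.92% (40.46 to 42.08%) and the position -428.5 to -323 bp (-591.5 to -573 bp). Using the most upstream start only changed no count by more than 2 genes. No paired analysis was possible because there is 1 group. Unknown depth, 2 replicates and wide windows in gene-dense stretches limit all counts, and a signal value has no error of its own.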
